A study of Mus musculus with 7 samples.

Results

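The 6 mature microRNAs (miRNAs) of the NF-kB-induced hairpins miR-146a, miR-146b and miR-155 were followed in small RNA libraries of mouse hepatocytes. They are mmu-miR-146a-5p, mmu-miR-146a-3p, mmu-miR-146b-5p, mmu-miR-146b-3p, mmu-miR-155-5p and mmu-miR-155-3p, and they were taken by name from the 1966 miRNAs listed in every library. The ALAS12-KO genotype gave 4 libraries and the WT genotype gave 3, and all 7 carry the treatment label TMX, which the labels do not spell out. The design text speaks of mutation of both ALAS enzymes, the aminolevulinate synthases that open heme synthesis, and of their bearing on small RNAs. How the alleles were made, in which cells they were lost and the age of the mice are unstated in the sources used here. Cells came from collagenase-perfused liver by low-speed centrifugation, a step that enriches hepatocytes without a sort. Nothing in the labels ties each replicate to its own animal, so the p-values speak to the spread among these libraries alone, which may be partly technical.

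NF-kB is a transcription factor that inflammatory signals switch on, and it raises transcription of the genes for miR-146a and miR-155 in macrophages and other leukocytes. miR-146 then damps the pathway by repressing the adaptor TRAF6 and the kinase IRAK1, whereas miR-155 represses the brakes SHIP1 and SOCS1 and so favours inflammation. In liver, both miRNAs are studied mostly in Kupffer cells, infiltrating leukocytes, endothelium and stellate cells, with hepatocytes a further possible source.

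The mature sequences are shown because the seed, bases 2 to 8, groups the 6 miRNAs and because the miR-146 guides are nearly alike. They are from RefSeq on GRCm38.p6, written 5′ to 3′ with the seed in capitals.
mmu-miR-146a-5p: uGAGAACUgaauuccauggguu
mmu-miR-146b-5p: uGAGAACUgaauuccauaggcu
mmu-miR-155-5p: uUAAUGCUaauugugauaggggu
mmu-miR-146a-3p: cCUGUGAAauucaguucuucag
mmu-miR-146b-3p: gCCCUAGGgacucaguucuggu
mmu-miR-155-3p: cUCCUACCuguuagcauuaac
miR-146a-5p and miR-146b-5p had the same seed and matched at 20 of 22 bases. Their differences, counted from 1 at the 5′ end with the miR-146a-5p base first, were G18A and U21C. Among the 1675 listed miRNAs with a RefSeq sequence, those 2 alone carried this seed, and miR-155-5p shared its seed with no other. How the counting treated reads that match both miR-146 guides is not given, so the split between them is uncertain.

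The hairpins are shown because each gives both arms, which the results below compare. Mature arms are in capitals.
Mir146: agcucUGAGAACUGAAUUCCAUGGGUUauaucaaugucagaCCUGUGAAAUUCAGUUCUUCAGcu
Mir146b: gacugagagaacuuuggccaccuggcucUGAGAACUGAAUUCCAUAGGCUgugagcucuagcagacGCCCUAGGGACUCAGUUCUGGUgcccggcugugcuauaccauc
Mir155: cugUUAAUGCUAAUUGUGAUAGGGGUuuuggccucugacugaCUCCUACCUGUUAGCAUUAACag
In GRCm38 with GENCODE annotation, Mir146, the gene of miR-146a, lies at chr11:43374397-43374461 on the minus strand, outside any other annotated gene. Its nearest neighbours are the lincRNA Gm12148 at 11021 bases and the protein-coding gene Pttg1 at 45789 bases. Mir146b lies at chr19:46342762-46342870 on the plus strand, in an intron of Mfsd13a, which is on the same strand. Mir155 lies at chr16:84714140-84714204 on the plus strand, within exon 2 of its host lincRNA Mir155hg.

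The libraries held 7719180 to 21962191 miRNA reads, so 1 CPM (a read count scaled to library size by the sum of all miRNA reads) stood for 7.72 to 22.0 reads, and a count of 0 allows up to 0.137 to 0.389 CPM (3 reads). The labelled cell type was checked on 6 hepatocyte markers, led by the liver-specific miR-122-5p, which together took 60.6% to 69.3% of reads in ALAS12-KO and 63.4% to 66.2% in WT. The genotype labels could not be checked against Alas1 or Alas2, since only miRNAs were counted. ALAS12-KO replicate 1 stood apart from the others in its content of miRNAs of other cell types. Markers of leukocytes, 8 miRNAs summed, made up 0.230% of its reads, while ALAS12-KO replicates 2 to 4 had 0.499% to 0.740% and WT had 0.588% to 0.778%. The endothelial pair from miR-126a made up 1.10% there, while ALAS12-KO replicates 2 to 4 had 2.55% to 3.65% and WT had 3.56% to 5.25%. No leukocyte marker was at 0 in any library except the passenger strand miR-150-3p in ALAS12-KO replicate 1.

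miR-146a-5p dominated the 6 miRNAs, and it did not differ between genotypes past the test. It took 97.8% to 98.8% of the reads of all 6 and ranked 27th to 48th among miRNAs in a library. Its level was 694, 1538, 2560 and 2052 CPM in ALAS12-KO replicates 1 to 4, against 2284, 2535 and 3192 CPM in WT replicates 1 to 3. ALAS12-KO replicate 1 was the lowest and WT replicate 3 the highest, and ALAS12-KO replicate 3 lay within the WT range. Means were 1711 ± 796 CPM in ALAS12-KO and 2670 ± 469 CPM in WT (SD, n = 4 and 3). The log2 fold change was -0.52 ± 0.29 (SE; 95% interval -1.19 to 0.15), with an adjusted p of 0.344 by edgeR's quasi-likelihood test over all 450 miRNAs that passed the filter on low counts. The estimate was -0.32 without ALAS12-KO replicate 1 and -0.76 without ALAS12-KO replicate 3. In bulk libraries, fewer cells of a type and less of a miRNA per cell cannot be told apart.

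miR-155-5p, the guide strand of miR-155, was far scarcer than miR-146a-5p. It was counted at 7.14, 16.5, 16.7 and 17.9 CPM in ALAS12-KO, from 94, 167, 286 and 293 reads, against 18.5, 21.4 and 22.3 CPM in WT, from 296, 470 and 172 reads. Every ALAS12-KO library was below every WT library on this scale, but the groups overlapped once libraries were scaled by TMM, edgeR's trimmed mean of M-values. The means were 14.6 ± 4.99 CPM in ALAS12-KO and 20.7 ± 1.99 CPM in WT. The log2 fold change was -0.36 ± 0.26 (95% interval -0.96 to 0.24; edgeR adjusted p = 0.456), and -0.20 without ALAS12-KO replicate 1.

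miR-146b-5p, the second guide with the miR-146 seed, was nearly level across libraries. It stood at 7.74, 10.7, 12.6 and 12.2 CPM in ALAS12-KO (102 to 215 reads), against 12.4, 12.2 and 11.5 CPM in WT (89 to 269 reads). Apart from ALAS12-KO replicate 1, the 6 other libraries lay within 10.7 to 12.6 CPM, and the groups overlapped. The log2 fold change was 0.0017 ± 0.18 (95% interval -0.42 to 0.42; edgeR adjusted p = 0.995), with a sign that turned negative under every other scaling tried. Across all 7 libraries its highest level was 1.62 times its lowest, against 3.12 times for miR-155-5p and 4.60 times for miR-146a-5p.

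The passenger strands were rare. miR-146a-3p was counted at 0.911, 1.98, 2.93 and 2.14 CPM in ALAS12-KO and at 2.37, 3.19 and 3.76 CPM in WT, from 12 to 70 reads. Both ends of that range repeat the order of its guide, with ALAS12-KO replicate 1 lowest and WT replicate 3 highest. Its log2 fold change was -0.49 ± 0.33 (95% interval -1.23 to 0.26; edgeR adjusted p = 0.409), and -0.32 without ALAS12-KO replicate 1. miR-146b-3p had 0, 1, 1 and 1 reads in ALAS12-KO and 0, 2 and 2 reads in WT. miR-155-3p had 0 reads in all 4 ALAS12-KO libraries and 0, 1 and 0 reads in WT. Both were below the filter. With no filter, edgeR gave adjusted p-values of 0.879 for miR-146b-3p and 0.668 for miR-155-3p over 1302 miRNAs, and a difference between the genotypes in them was not detectable at this depth.

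**Figure D1:**
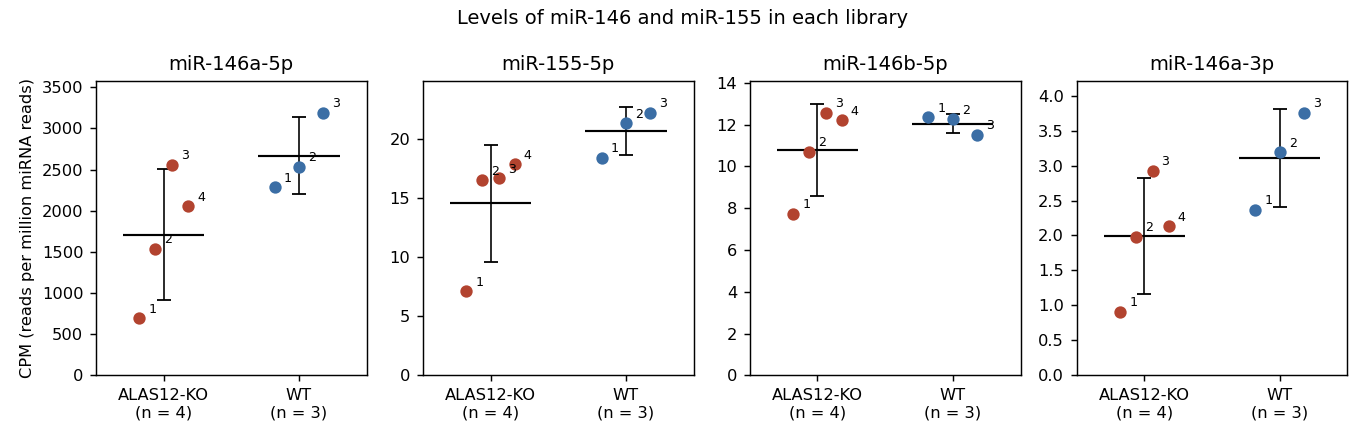
CPM of the 4 tested miRNAs in each library, with a linear axis from 0; points are libraries marked with the replicate number, horizontal lines are means and bars are SD, with ALAS12-KO (n = 4) left of WT (n = 3). ALAS12-KO replicate 1 is the lowest point of all 4 panels, at 694 CPM for miR-146a-5p, and the genotypes overlap in each panel except that of miR-155-5p.

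Of the 6 miRNAs, 4 passed the filter and 0 were called by edgeR at an adjusted p under 0.05, where 0% of the 450 tested were called. At an unadjusted p under 0.05, 0 of the 4 were lower in ALAS12-KO, beside a background of 8.44%, or 38 of 450. Without ALAS12-KO replicate 3 that count was 1 of the 4, miR-146a-5p, whose edgeR adjusted p was then 0.241. In that smaller fit, 87 of the 430 tested reached the unadjusted threshold in either direction. On all 450, 84 reached that unadjusted threshold in either direction, DESeq2 called 22 after adjustment and limma-voom called 0, and none of these calls was a member. Libraries of the genotypes did not overlap, with ALAS12-KO lower, for 1 of the 4 on CPM of library totals (miR-155-5p; background 15.3%) and for 0 of the 4 on TMM-scaled CPM (background 9.33%). The log2 fold change was negative for 3 of the 4, with a background of 44% of all tested miRNAs. The median of the 4 was -0.42, against 0.06 over all 450. Scaling by library totals alone moved the median of all 450 to -0.12, and values on that scale are read relative to it.

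**Figure D2:**
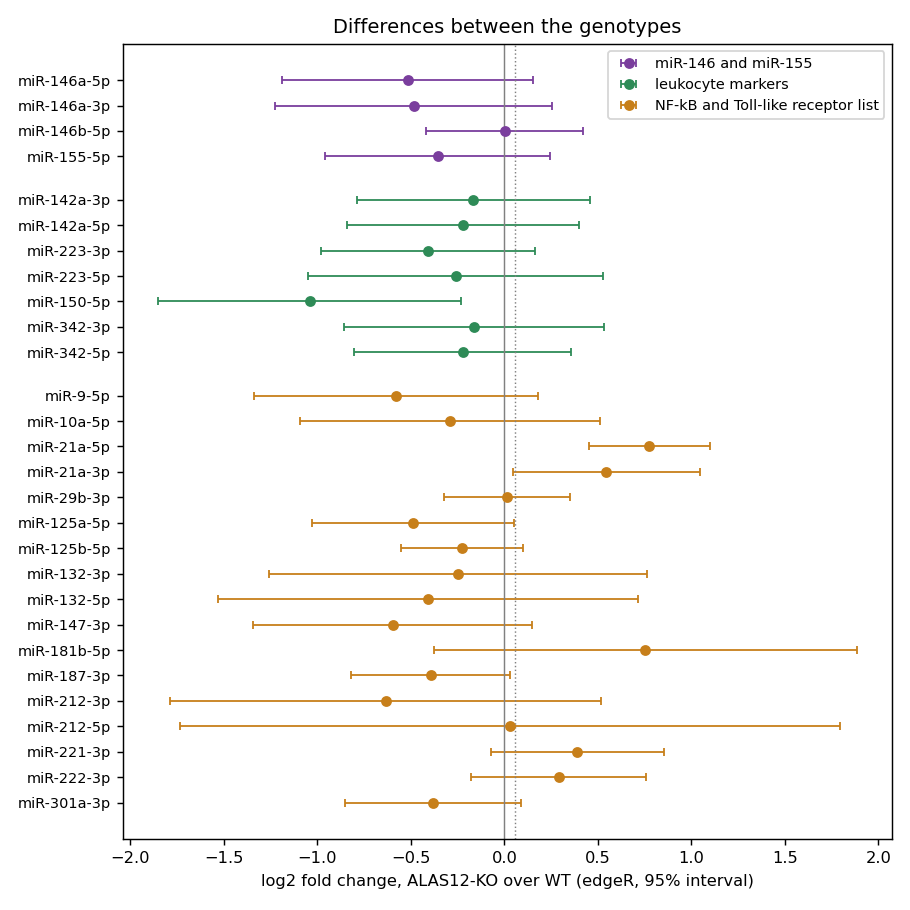
log2 fold change of ALAS12-KO over WT for the 4 tested miRNAs, the pathway list and the leukocyte markers, with 95% intervals from edgeR's quasi-likelihood fit; the dotted vertical line marks the median of all 450 tested miRNAs, 0.06. The intervals of the 4 miR-146 and miR-155 strands all cross 0, and that of miR-21a-5p, at 0.78, is the furthest above it among the pathway miRNAs named in the text.

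The sum of all 6 miRNAs was set by miR-146a-5p. It was 710, 1567, 2592 and 2085 CPM in ALAS12-KO and 2317, 2572 and 3230 CPM in WT. ALAS12-KO replicate 3 lay above WT replicates 1 and 2, so the genotypes overlapped. The mean log2 difference was -0.78, with a two-sided exact permutation p of 0.2 over the 35 splits of 7 libraries, of which the smallest possible p is 0.0286. Without ALAS12-KO replicate 1 the difference was -0.39.

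Balances between the strands need no scaling of libraries. The order of abundance was miR-146a-5p, miR-155-5p, miR-146b-5p and miR-146a-3p. miR-146a-5p exceeded miR-155-5p in 7 of 7 libraries, by 93.0 to 153 times. miR-155-5p exceeded miR-146b-5p in 6 of 7 libraries, and the reverse held in ALAS12-KO replicate 1. Their ratio was 0.922, 1.55, 1.33 and 1.47 in ALAS12-KO and 1.49, 1.75 and 1.93 in WT, so these neighbours in the order were close in every library. miR-146b-5p exceeded miR-146a-3p in 7 of 7 libraries. How evenly different miRNA sequences were captured by ligation was not tested, so levels of different miRNAs are compared only as reads.

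miR-146b-5p supplied at most 1.10% of the reads of the miR-146 guides in any library. Its share was 1.10%, 0.691%, 0.489% and 0.591% in ALAS12-KO, against 0.538%, 0.481% and 0.360% in WT. The highest share belonged to ALAS12-KO replicate 1 (95% Clopper-Pearson interval 0.9003% to 1.34%), where miR-146a-5p was at its lowest, and the lowest to WT replicate 3 (0.289% to 0.443%). Means were 0.719% ± 0.269 in ALAS12-KO and 0.460% ± 0.091 in WT. The mean log2 difference of 0.60 gave an exact permutation p of 0.114, or 0.3 after Benjamini-Hochberg adjustment over the 3 balances and sums tested, and it was 0.37 without ALAS12-KO replicate 1.

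miR-155-5p and the miR-146 guides, which act on opposite sides of the pathway, showed no difference in their balance past the test. There were 10.2, 10.7, 6.51 and 8.66 miR-155-5p reads per 1000 reads of the miR-146 guides in ALAS12-KO, against 8.04, 8.40 and 6.96 in WT. ALAS12-KO libraries held both the highest and the lowest of these values. The means were 9.004 ± 1.87 in ALAS12-KO and 7.80 ± 0.753 in WT, a log2 difference of 0.19 with an exact permutation p of 0.4 (adjusted p = 0.4). The difference moved by over 1.5 times when 1 library was left out, to 0.12, 0.097 and 0.34 without ALAS12-KO replicates 1, 2 and 3 and to 0.11 without WT replicate 3.

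The 3p arm of miR-146a was among the rarest relative to its guide in the 130 hairpins compared. It made up 0.131%, 0.129%, 0.114% and 0.104% of the reads of its hairpin in ALAS12-KO, against 0.104%, 0.126% and 0.118% in WT. Pooled over libraries, 117 reads of miR-146a-3p in ALAS12-KO gave 0.115% (95% Clopper-Pearson interval 0.0947% to 0.137%) and 137 reads in WT gave 0.117% (0.0983% to 0.138%). The log2 ratio of the arms differed between ALAS12-KO and WT by 0.06 ± 0.15 (SE; 95% interval -0.30 to 0.42; limma adjusted p = 0.911 over 130 hairpins). Among those hairpins 0 were called, a background of 0%, and 7 had an unadjusted p under 0.05 by limma. A minor arm stood at a median of 6.84% of its major arm over the 130 hairpins, and miR-146a, at 0.120%, had the fifth lowest value. Hairpins whose minor arm had too few reads for the filter, miR-146b and miR-155 included, are outside this rank. For miR-146b, the pooled 3p share was 0.478% in ALAS12-KO (3 reads; interval 0.0986% to 1.39%) and 0.714% in WT (4 reads; 0.195% to 1.82%). For miR-155, it was 0% in ALAS12-KO (0 of 840 reads; upper limit 0.438%) and 0.106% in WT (1 read; 0.00270% to 0.592%). These intervals cover counting error only.

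**Figure D3:**
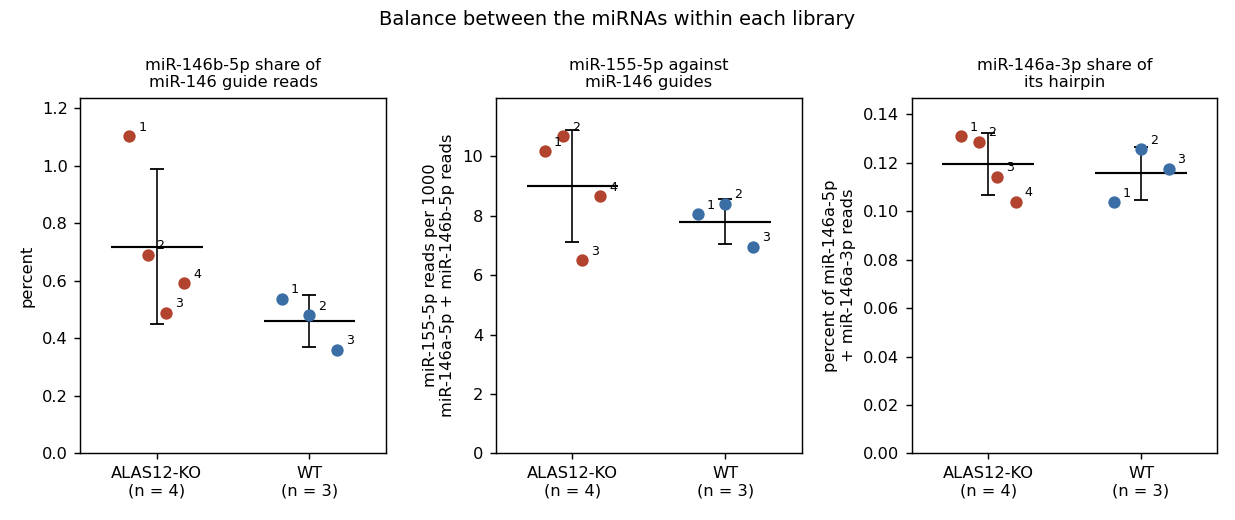
Balances within each library, on linear axes from 0: miR-146b-5p as percent of the reads of the miR-146 guides, miR-155-5p reads per 1000 reads of the miR-146 guides, and miR-146a-3p as percent of the reads of its hairpin; points are libraries with their replicate number, lines are means and bars SD, with ALAS12-KO (n = 4) left of WT (n = 3). The share of miR-146b-5p peaks at 1.10% in ALAS12-KO replicate 1, and the share of miR-146a-3p stays between 0.104% and 0.131% in both genotypes.

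Because miR-146 and miR-155 are abundant in leukocytes, the 3 guides were also set against leukocyte miRNAs of the same library. The markers were both arms of miR-142a, which is specific to blood cells, the myeloid miRNA miR-223-3p, the lymphocyte miRNA miR-150-5p, and miR-342-3p. Relative to the mean log2 level of these 5, miR-146a-5p differed by -0.14 between ALAS12-KO and WT (exact permutation p = 0.286, adjusted p = 0.429 over the 3 guides). miR-155-5p differed by 0.05 (exact permutation p = 0.6, adjusted p = 0.6) and miR-146b-5p by 0.46 (exact permutation p = 0.171, adjusted p = 0.429). Without ALAS12-KO replicate 1 the differences were -0.098 for miR-146a-5p, 0.023 for miR-155-5p and 0.27 for miR-146b-5p, and without WT replicate 3 that of miR-146b-5p was 0.29. The leukocyte markers themselves passed the filter in 7 of 8 cases, with 0 called by edgeR, 1 at an unadjusted p under 0.05 (miR-150-5p, log2 fold change -1.04, adjusted p = 0.220), 7 negative and a median of -0.22. Over all 450 tested, 8.44% were lower at that unadjusted threshold, 44% were negative and the median was 0.06.

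The choice of marker mattered for miR-146a-5p. Against both arms of miR-142a alone, its reads came to 37.7%, 38.2%, 42.1% and 40.3% of theirs in ALAS12-KO, against 50.2%, 50.0% and 51.5% in WT. All 4 ALAS12-KO libraries, replicate 1 included, were below all 3 WT libraries. The log2 difference was -0.35 with an exact permutation p of 0.0286, the smallest these libraries can give, and 0.0857 after adjustment over the 3 guides. Against miR-223-3p alone the difference was -0.13 (exact permutation p = 0.4), and against miR-126a, a marker of endothelium chosen after the data were seen, it was 0.024 (exact permutation p = 0.8). Of 221 miRNAs, miR-126a-5p ran closest to miR-146a-5p over these same libraries. A difference near 0 largely follows from that closeness, so this last p is no independent test. Of the 12 comparisons made with 4 sets of markers, none passed 0.05 after adjustment over the 3 guides of its set. With a smallest p of 0.0286, 1 guide alone can reach no lower than 0.0857 after that adjustment. The adjusted values therefore could not show a difference confined to 1 guide.

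miR-155-5p gave -0.16 against miR-142a, 0.06 against miR-223-3p and 0.21 against miR-126a, with overlapping genotypes for all 3. miR-146b-5p gave 0.25 against miR-142a, 0.47 against miR-223-3p and 0.62 against miR-126a. Against miR-223-3p the genotypes did not overlap, with an exact permutation p of 0.114 (adjusted p = 0.343), and against miR-126a they overlapped, with an exact permutation p of 0.0857 (adjusted p = 0.257).

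The miRNAs most like each guide were found by the SD, over the 7 libraries, of the difference in log2(CPM + 0.5) from the guide, among 221 miRNAs with a mean of at least 10 CPM. These are descriptions without a test, and all points share the makeup of the same 7 libraries. miR-146a-5p ran closest to miR-126a-5p, a strand of the endothelial hairpin, with an SD of 0.0841, against 0.730 for its own level and a median of 0.697 over all 221. Its reads were 20.0% ± 0.631 of those of miR-126a-5p in ALAS12-KO and 20.3% ± 1.92 in WT. This ratio stayed within 19.1% to 22.5% over libraries in which miR-146a-5p itself varied 4.60 times. Next came miR-322-5p at 0.0919 and miR-10a-3p at 0.127, and the same 3 led in the same order without ALAS12-KO replicate 1. The leukocyte miRNAs were further off, with miR-223-3p at rank 11, miR-142a-3p at rank 23 and miR-155-5p at rank 31.

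Over all 7 libraries, miR-155-5p ran closest to the leukocyte markers miR-223-3p, with an SD of 0.156, and miR-142a-5p, with 0.196. Next came miR-27a-3p, which is not on the leukocyte list, with 0.207. The level of miR-155-5p alone had an SD of 0.530. Without ALAS12-KO replicate 1 these ranked 14, 60 and 63, so this order rests on that library. miR-146b-5p ran closest to miR-339-5p (0.110), let-7j (0.114) and miR-103-3p (0.121), while its seed partner miR-146a-5p came at rank 175 of 221. Without ALAS12-KO replicate 1 these ranked 15, 34 and 8, and the SD of its own level was 0.0836 in place of 0.236, so there was little variation left to match.

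**Figure D4:**
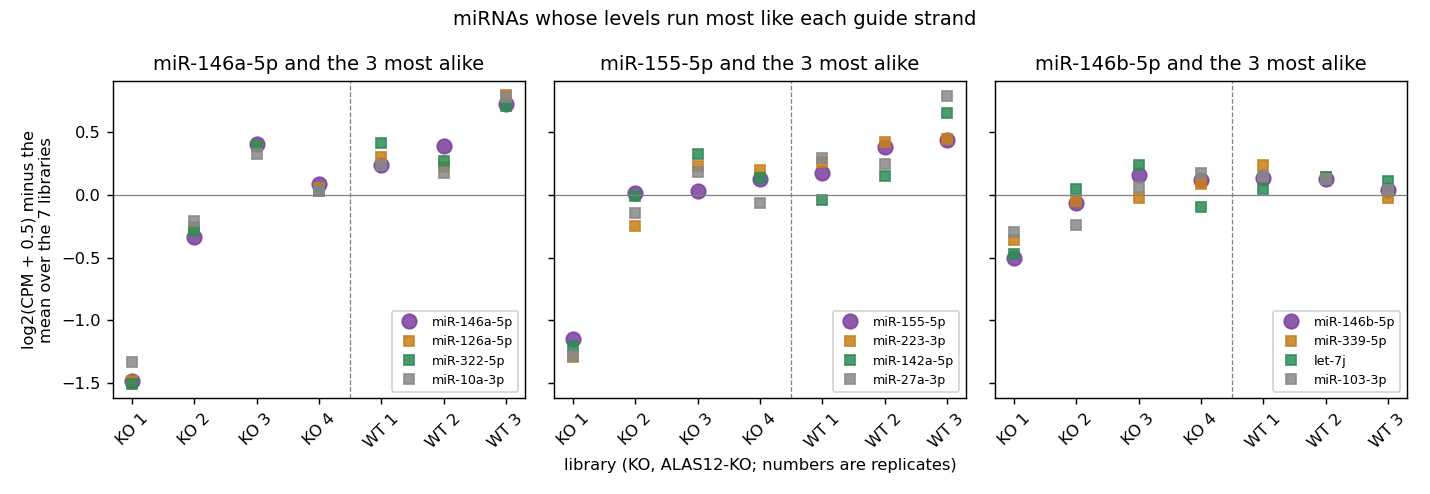
log2(CPM + 0.5) minus its mean over the 7 libraries for each guide (circles) and the 3 miRNAs most like it (squares), by library, with ALAS12-KO (KO) left of the dashed line and WT right of it. miR-126a-5p overlies miR-146a-5p most closely, with an SD of the difference of 0.0841, and ALAS12-KO replicate 1 is the lowest library in all 3 panels.

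The same measure against whole marker lists, added after the data were seen, gave each of the 3 guides a different nearest list. miR-146a-5p had its smallest SD against the endothelial pair (0.101), then against leukocyte markers (0.169) and mesenchymal markers (0.182), and its largest against hepatocyte markers (0.790). miR-155-5p had its smallest against leukocyte markers (0.135), with 0.270 for endothelium and 0.596 for hepatocytes. miR-146b-5p had its smallest against hepatocyte markers (0.282), with 0.418 for leukocytes and 0.518 for endothelium. Each guide kept the same nearest list without ALAS12-KO replicate 1, at 0.110, 0.129 and 0.111 for miR-146a-5p, miR-155-5p and miR-146b-5p. A guide that varies little lies close to markers that vary little, and the hepatocyte list had an SD of 0.0959 itself. For the other guides too, the measure depends on how alike the sizes of variation are. Alone, miR-146a-5p had an SD of 0.730 and the endothelial pair 0.718, while miR-155-5p had 0.530 and the leukocyte list 0.618. The cholangiocyte list had 0.719 alone, and its SD against miR-146a-5p was 0.384. The part of size of variation in these values was not tested. The level of miR-146b-5p alone had an SD of 0.236, or 0.0836 without ALAS12-KO replicate 1. Both were below its values against hepatocyte markers, so the difference from its nearest list varied more than miR-146b-5p alone. The part of cell makeup in the genotype values was not tested.

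**Figure D5:**
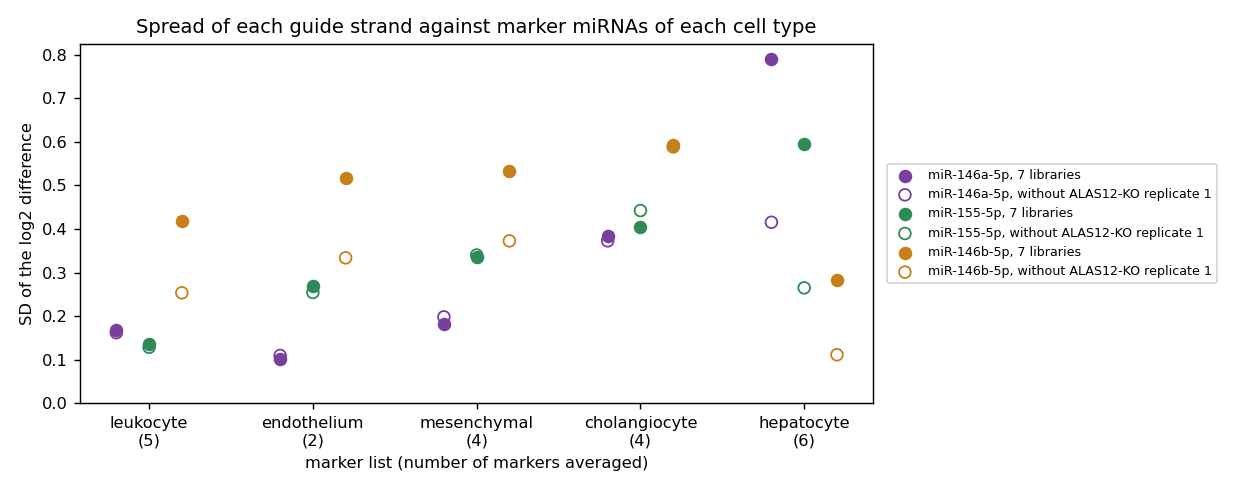
SD over libraries of the log2 difference between each guide and the mean of each marker list (number of markers averaged in brackets), on a linear axis from 0; filled circles use all 7 libraries and open circles leave out ALAS12-KO replicate 1. The lowest points are miR-146a-5p against endothelium at 0.101, miR-155-5p against leukocytes at 0.135 and, without ALAS12-KO replicate 1, miR-146b-5p against hepatocytes at 0.111. That last value is above the SD of miR-146b-5p alone in those libraries, 0.0836.

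Other miRNAs reported in NF-kB or Toll-like receptor signalling gave no call either. Of 19 listed, 17 were tested and 0 were called by edgeR, with 7 positive and 10 negative log2 fold changes and a median of -0.25. At an unadjusted p under 0.05, 2 of the 17 were higher in ALAS12-KO and 0 were lower, beside backgrounds of 10.2% and 8.44% over all tested miRNAs. They were the strands of miR-21a, an NF-kB and STAT3 target that is raised in stressed and regenerating liver. miR-21a-5p averaged 59318 ± 15569 CPM in ALAS12-KO and 38687 ± 3228 CPM in WT, with a log2 fold change of 0.78 ± 0.14 (edgeR adjusted p = 0.103). miR-21a-3p had a log2 fold change of 0.54 ± 0.22 (edgeR adjusted p = 0.244). The next most abundant were miR-29b-3p at 0.01, miR-125b-5p, a repressor of TNF mRNA, at -0.23, and miR-10a-5p, which restrains NF-kB in endothelium, at -0.29. Among the 4 most abundant leukocyte markers the log2 fold changes were -0.17 for miR-142a-3p, -0.41 for miR-223-3p, -0.22 for miR-142a-5p and -0.16 for miR-342-3p, with edgeR adjusted p-values of 0.378 to 0.790.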

How the data were processed

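Small RNA from mouse hepatocytes, 4 ALAS12-KO and 3 WT libraries, was deposited by the authors as whole-number read counts per mature miRNA, not normalised, as read from the values. Control RNAs were added and a 3' linker was ligated, per the labels' protocols. The added controls were not analysed here, so levels are relative to all miRNAs of a library. Cutadapt, limma, mm10 and hg38 are named, with no role, per the submitters' processing notes. The aligner, counter and miRNA annotation are unstated in the sources used here. Summary entries for reads outside miRNAs (50.9% to 73.7% outside any miRNA, 4.54% to 8.00% not aligned) entered neither library sizes nor tests.

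Counts of ALAS12-KO against WT were tested in R 4.3.3 by edgeR 4.0.16 (robust quasi-likelihood fit with TMM factors, filterByExpr at its minimum of 10 counts), with Benjamini-Hochberg adjustment over all tested miRNAs and a threshold of 0.05. The fit was checked on simulated counts. Arm ratios, with 0.5 added to each count, used limma 3.58.1 on hairpins with both arms tested or a mean count of at least 10 in each. Values per library were compared with two-sided exact permutation tests of the difference of mean log2 values (Python 3.11.15, scipy 1.17.1). Replicates differed by more than sampling noise, so none was a copy of another, and each was counted as 1 sample. This does not show that they came from separate animals. Alternatives were other scalings, DESeq2 1.42.0, limma-voom, filters, pseudocounts, marker sets, leaving out each library and a replicate block.

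Named were the 6 members, the 3 miRNAs most like each guide, miRNAs sharing a seed, up to 4 of the most abundant members of the pathway and leukocyte lists, and any listed miRNA past the threshold; miR-21a-3p, miR-150-5p and miR-150-3p were named after their values were seen. Members and lists were chosen with earlier results of these data known. Sequences are from RefSeq (GRCm38.p6) and positions from GENCODE M21 on GRCm38. Reads carry no molecular identifiers in these counts.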

Additional observations from a re-analysis of the deposited data

Results flagged for a closer look

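In the ALAS12-KO group, miR-155-5p in replicate 1, at 7.14 CPM, lay far below the 16.5 to 17.9 CPM of the other 3 libraries. Its distance to the next library was 0.875 of the spread from lowest to highest, past the 95% limit of Dixon's test for 4 libraries. miR-146b-5p relative to leukocyte markers was far higher in the same library, at -4.52 on the log2 scale, against -5.33 to -5.24 in the other 3, a distance of 0.881 of the spread. These are 2 of 11 measures examined this way, and chance gives about 1 in 20 for a single measure. The measures share libraries and counts, so 2 of 11 cannot be read against that rate. Leukocyte markers made up 0.230% of the reads of that library, and their part in either value was not tested.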

How the results depend on the processing

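The 95% intervals of the 4 log2 fold changes reach from -1.23 to 0.42, and miR-146a-3p, miR-146b-3p and miR-155-3p rest on few reads. 0 of the members tested were called under any alternative run, also where DESeq2 called 22 miRNAs, library totals 2 and no filter 13. Of the 6, miR-146b-3p and miR-155-3p were tested only with no filter. The log2 fold changes of miR-146a-5p, miR-146a-3p and miR-155-5p stayed negative in every alternative run (a mean CPM of at least 10 leaves out miR-146a-3p), at -0.70 to -0.52, -0.62 to -0.49 and -0.51 to -0.37, and at -0.76 to -0.32, -0.72 to -0.32 and -0.50 to -0.20 when 1 library was left out. That of miR-146b-5p, near 0, turned negative with library totals (-0.16), upper-quartile factors (-0.086), DESeq2 size factors (-0.014), DESeq2 (-0.019), limma-voom (-0.0078), no filter (-0.033) and a mean CPM of at least 10 (-0.13), and ran from -0.076 to 0.059 when 1 library was left out. The arm balance of miR-146a ran from -0.016 (without WT replicate 1) to 0.13 when 1 library was left out, was 0.16 with a pseudocount of 5, and with a mean count of at least 100 per arm it had no value. Against miR-142a, miR-146a-5p gave -0.35 (exact permutation p = 0.0286) and miR-155-5p -0.16. Against miR-126a, added after the data were seen and including the strand closest to it in these libraries, miR-146a-5p gave 0.024. With 1 library left out, miR-155-5p against leukocyte markers ran from -0.033 (without WT replicate 3) to 0.10, miR-146a-5p from -0.24 to -0.085, miR-146b-5p from 0.27 to 0.61, miR-155-5p against the miR-146 guides from 0.097 to 0.34, the share of miR-146b-5p from 0.37 to 0.76 and the summed level from -1.02 to -0.39. The causes were not tested.

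Same-numbered libraries did not deviate together (correlations over miRNAs -0.02, -0.42 and -0.02), and those of differently numbered libraries ran from -0.34 to 0.48. So few libraries cannot exclude a pairing, and the labels do not state one. ALAS12-KO replicate 4 has no WT library of its number, so with a replicate block it carries no weight in the genotype difference. With that block the log2 fold change was -0.70 for miR-146a-5p, -0.57 for miR-146a-3p, -0.027 for miR-146b-5p and -0.49 for miR-155-5p. In that fit 0 members were called after adjustment and 1, miR-146a-5p, was under the unadjusted threshold of 0.05. Over all 450 tested, 60 were under it in either direction. The arm balance with the block was 0.13, the same as without ALAS12-KO replicate 4.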
